A study of Homo sapiens with 9 samples.

Results

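A set of 30 p53-response genes, of the 60308 annotated genes in the count files, was followed in a human breast epithelial line after knockdown of G9a, and every one of the 30 could be tested. They were chosen by name: 4 feedback regulators of p53, 7 genes of mitochondrial apoptosis, 5 death receptors, 5 genes of metabolism and mitochondria, 4 of DNA repair and nucleotide supply, and 5 of growth arrest and stress signalling. The cells were MCF10A, an immortalised and non-tumour breast epithelial line, carrying ectopic MYC and a mutant form of the kinase PI3K in all 9 libraries. Each culture also carried an inducible hairpin, switched on with doxycycline at 2 µg/mL over 72 hours. Libraries came from a scrambled hairpin (shSCR, n = 3) and the G9a hairpins shG9a1 (n = 3) and shG9a4 (n = 3), so the scrambled controls share the drug, both oncogenes and the vector with the knockdowns. The design text calls the 3 replicates of each hairpin biological, without saying whether they came from separate infections, so the p-values measure the spread between these libraries. The p53 transcript itself is not analysed here.

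As background, p53 is a transcription factor that binds DNA as a tetramer, at paired copies of a short sequence that read the same on both strands. It is held at a low level by MDM2, a ubiquitin ligase that is also one of its targets, and it builds up when DNA damage, nucleolar stress or an oncogene interrupts that loop. Its targets stop the cell cycle, repair DNA, alter metabolism or trigger apoptosis, and MYC is among the oncogenes known to engage it. MCF10A cells are known to retain wild-type p53 and to have lost the CDKN2A locus, which encodes ARF, the inhibitor of MDM2 through which MYC usually signals to p53.

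Promoter windows of RefSeq genes (GRCh38.p14, from 250 bases before to 50 bases after a transcript start) were found for 25 of the 30 genes. They were searched on both strands for the p53 consensus, a pair of decamers of 10 bases with a spacer of 0 to 13 bases, allowing 2 mismatches over the 20 scored positions but none at the invariant C and G of each decamer. A match was found for 5 genes, and these are shown because they are the p53-like elements nearest to the starts of genes discussed below. They are written 5′ to 3′ on the strand of the match, and the capitals mark the 4-base core of each decamer.
DDB2: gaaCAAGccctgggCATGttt
MDM2: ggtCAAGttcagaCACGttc
FAS: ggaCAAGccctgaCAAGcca
AEN: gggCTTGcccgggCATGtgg
FDXR: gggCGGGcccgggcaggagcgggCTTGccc
The DDB2 element lies at chr11:47214979-47214999 on the plus strand, has 0 mismatches and begins 6 bases after a start. The MDM2 element, at chr12:68808923-68808942 on the plus strand, begins 94 bases before a start and has 2 mismatches. For FAS the match is at chr10:88991309-88991328 on the plus strand, 122 bases before a start, with 2 mismatches. AEN has its match at chr15:88621306-88621325 on the plus strand, 34 bases before a start, with 2 mismatches. That of FDXR is at chr17:74872996-74873025 on the minus strand, 31 bases before a start, also with 2 mismatches. Such a match was in 6 of the 35 windows of the members, as some genes have several starts. Among all 35116 RefSeq windows of this length 2.93% held one, and 0.0285% held one with 0 mismatches. A match describes letters and not binding. The distance is to the start of that window, and where a gene has several starts a match may lie after another of them. In addition, p53 elements lie in introns and farther upstream, and what lies outside these windows was not searched. The MYC-type E-box CACGTG, searched in the same windows, was found for AEN, BAX, BBC3 and EDA2R, in 5 of the 35 windows of the members against 7.26% of all windows.

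Each library held between 53065611 and 76958831 reads assigned to genes. EHMT2, which encodes G9a, stood at 51.1, 45.2 and 45.4 CPM (reads per gene, scaled to a fixed total of reads in genes) in the shSCR libraries, at 17.6, 22.6 and 21 with shG9a1 and at 32.1, 27.2 and 33.5 with shG9a4. It fell with shG9a1 (log2 fold change -1.21, SE 0.11, adjusted p = 0.00766), and with shG9a4 the log2 fold change was -0.61 with an adjusted p of 0.259 (0.0906 with the replicate number as a block). Libraries that share a replicate number deviated together from their group means in every one of the 9 pairs, so values with the replicate number as a block are given where they change a call. All 12 basal and general epithelial markers were at 1 CPM or more in every library, and the 5 leukocyte markers together reached at most 0.147 CPM, with CD3E at 0 in all 6 knockdown libraries. The epithelial markers summed to between 5027 and 6952 CPM in shSCR, 6130 and 8032 with shG9a1, and 5006 and 7284 with shG9a4, and 9 of the 12 had a mean above the control with shG9a1 and 11 with shG9a4. None of the 12 passed the test without the block (lowest adjusted p = 0.633 with shG9a1 and 1.00 with shG9a4), and with it 1 did, the basal keratin gene KRT14, which was higher with both hairpins (adjusted p = 0.00576 and 0.0148). The fibroblast markers, 3 of 7 of which were at 1 CPM or more throughout, summed to between 159 and 337 CPM in shSCR, 197 and 421 with shG9a1, and 140.0 and 417 with shG9a4. The 4 endothelial markers found summed to between 1.40 and 1.99 CPM in shSCR, 2.12 and 2.99 with shG9a1 and 1.76 and 2.22 with shG9a4, and 6 luminal markers to between 163 and 210 CPM, 179 and 294, and 169 and 236. The part of any of these in the results that follow was not tested, and in bulk RNA a change in the mix of cells and a change in RNA per cell cannot be told apart.

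The p53 targets were expressed in the control cells over a wide range. Per kilobase of exon, the highest level in shSCR was that of the cyclin G1 gene CCNG1 (178 ± 11.4 RPKM, SD, n = 3), followed by the TRAIL death receptor gene TNFRSF10B (59.8 ± 2.29 RPKM), the ribonucleotide reductase subunit gene RRM2B (47.0 ± 5.41 RPKM) and MDM2 (40.9 ± 0.523 RPKM). Of these neighbours, RRM2B and MDM2 differed by little more than the SD of RRM2B. The lowest levels were those of the decoy TRAIL receptor gene TNFRSF10C (2.79 ± 0.543 RPKM), the PIDDosome gene PIDD1 (1.40 ± 0.323 RPKM) and BBC3 (0.685 ± 0.154 RPKM), which encodes the BH3-only protein PUMA. The apoptosis effector genes BAX and PMAIP1 lay between them, at 18.4 ± 0.403 and 8.82 ± 1.04 RPKM. Reads on the opposite strand made up at most 4.76% of a member's reads, the most at PIDD1 and BBC3, and the TRAIL receptor genes share similar sequence, so that reads mapping to more than 1 of them were not counted.

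**Figure D1:**
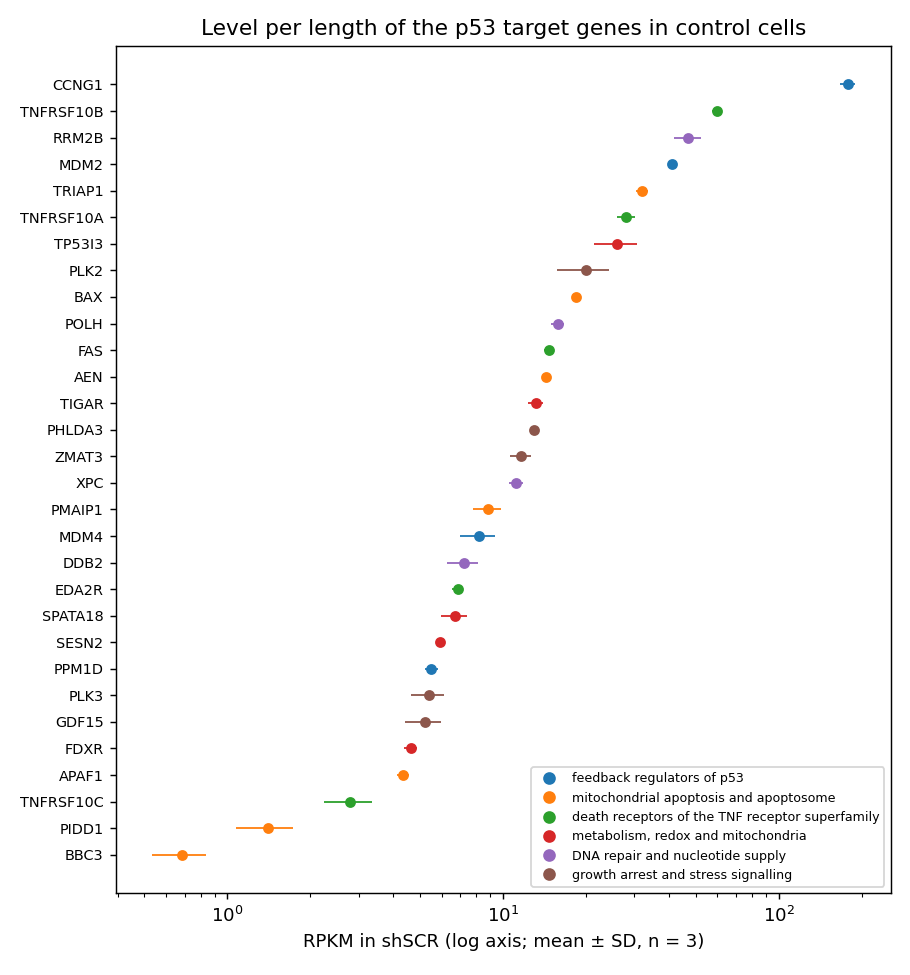
Level of the 30 p53-response genes in the 3 control (shSCR) libraries, as RPKM on a log axis, ordered by mean and coloured by role; points are means and bars 1 SD (n = 3). CCNG1 is at the top at 178 RPKM and BBC3 at the bottom at 0.685 RPKM.

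With shG9a1, the hairpin with the lower EHMT2 levels, 26 of the 30 genes had a mean above the control, against 50.2% of all 18435 genes tested, but the differences were small and none passed the test over all genes. The median log2 fold change was 0.11 for the 30 genes and 0.00086 for all genes, and the single values ran from -0.12 (DDB2) to 0.56 (TP53I3). By edgeR's quasi-likelihood test 0 of 30 had an adjusted p under 0.05, where 0.038% of all genes did. At an unadjusted p under 0.05, 3 were higher, namely TP53I3, FAS and PMAIP1 (4.34% of all genes), and 0 were lower (3.15% of all genes). With the replicate number as a block 1 of 30 passed, TP53I3, against 0.776% of all genes, and 9 were higher at an unadjusted p under 0.05, against 8.1% of all genes. The shG9a1 and shSCR libraries did not overlap for 4 genes, all higher (MDM2, FAS, TP53I3 and PLK3), against 7.15% of all genes, and for 0 genes that were lower (7.54% of all genes).

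With shG9a4, 22 of the 30 genes had a mean above the control, against 50.8% of all genes, with a median log2 fold change of 0.062 against 0.0021. None of the 30 had an adjusted p under 0.05 (0.0271% of all genes), nor with the block (0.0759% of all genes), and DESeq2, the likelihood ratio test and limma voom also called 0. One, FAS, was higher at an unadjusted p under 0.05 (1.4% of all genes), and FAS was also the only member whose shG9a4 and shSCR libraries did not overlap (3.25% of all genes were higher without overlap). Both comparisons use the same 3 control libraries, so their directions are not independent of each other. In the direct comparison of the hairpins 8 of the 30 genes were higher with shG9a4 than with shG9a1 (49.8% of all genes) and 22 were lower, with a median log2 difference of -0.051, and 0 passed the test, with or without the block (0% of all genes in either fit). For 2 members, TP53I3 and TIGAR, all shG9a4 libraries were below all shG9a1 libraries (4.11% of all genes), and for 0 were they above (5.06% of all genes). TP53I3 was the only member lower there at an unadjusted p under 0.05 (1.9% of all genes), with 0 higher (2.19% of all genes).

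**Figure D2:**
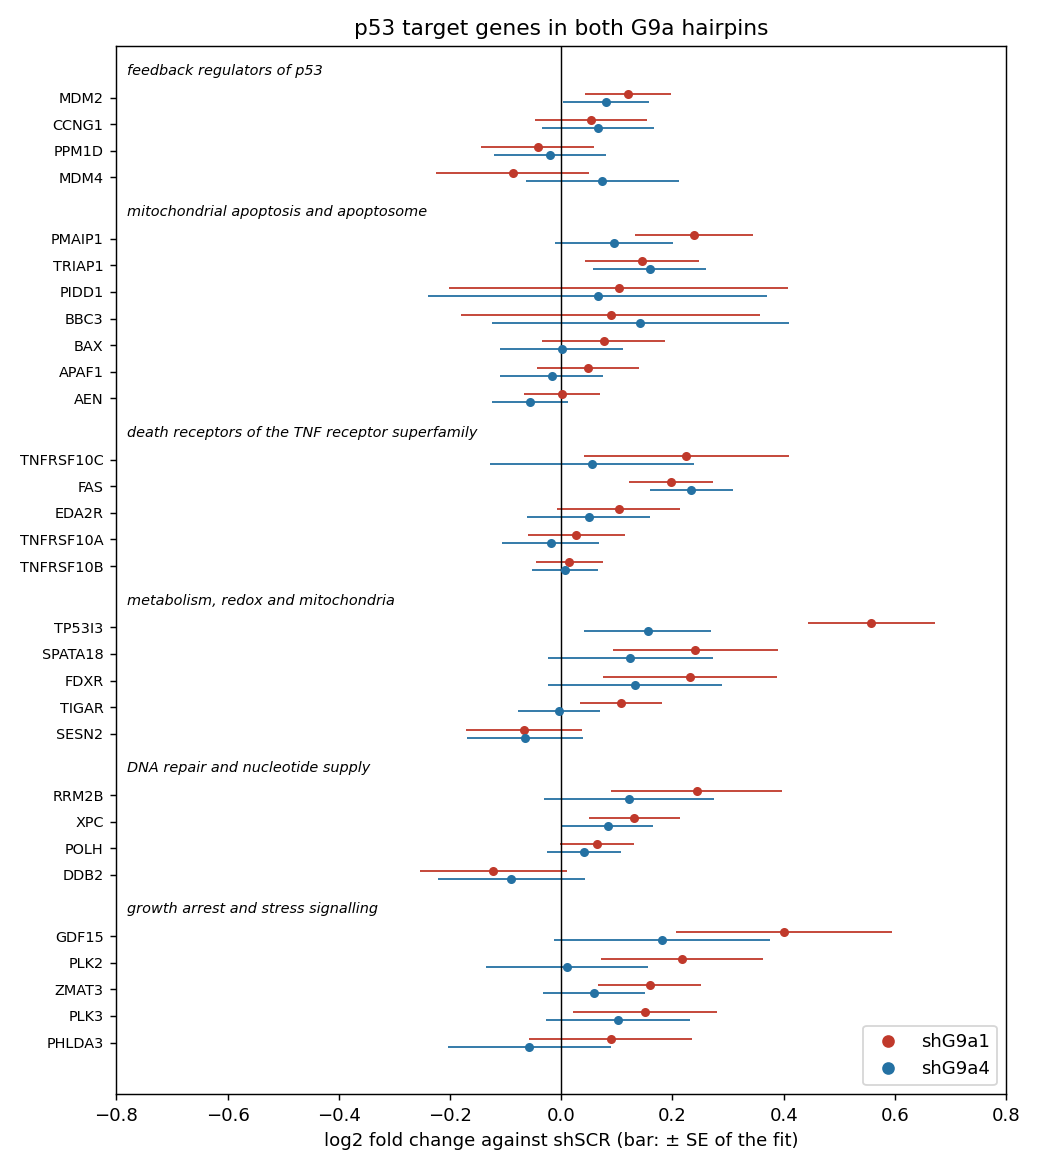
Log2 fold change against shSCR for each of the 30 genes, grouped by role, for shG9a1 and shG9a4; bars are 1 SE from the edgeR fit. TP53I3 with shG9a1 stands farthest to the right at 0.56, and most other points lie within 0.25 of 0.

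Averaged over both hairpins, 25 of the 30 genes were above the control (50.2% of all genes), and 0 passed the test (0.0488% of all genes; 0.184% with the block). TP53I3 and FAS, 2 of the 30, were higher at an unadjusted p under 0.05, against 2.78% of all genes, and 7 with the block, against 5.95%. FAS was the only member for which all 6 knockdown libraries lay above all 3 controls, as 1.28% of all genes did.

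The feedback regulators of p53 showed no common direction. MDM2, the ligase that marks p53 for degradation and is itself induced by p53, stood at 538, 551 and 540 CPM in shSCR, 626, 586 and 558 with shG9a1, and 588, 618 and 516 with shG9a4. The 3 shG9a1 libraries were above every control, whereas the shG9a4 libraries lay on both sides of the controls. The log2 fold change was 0.12 with shG9a1 (SE 0.077, adjusted p = 0.787) and 0.080 with shG9a4 (adjusted p = 1.00). MDM4, a relative of MDM2 that binds p53 and blocks its activation domain, had 87.0, 78.9 and 104 CPM in shSCR, 79.5, 79.9 and 94.8 with shG9a1, and 81.5, 87.7 and 115 with shG9a4. Its highest library in every group was replicate 3. PPM1D, a phosphatase that removes activating phosphates from p53, lay between 23.8 and 30.5 CPM over all 9 libraries, and CCNG1, which guides a phosphatase to MDM2, between 497 and 653 CPM. Log2 fold changes of PPM1D and CCNG1 lay between -0.042 and 0.066 with either hairpin.

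Among the mitochondrial apoptosis genes all 7 had a mean above the control with shG9a1 and 5 of 7 with shG9a4, with medians of 0.089 and 0.065. PMAIP1, which encodes the BH3-only protein NOXA, stood at 18.7, 22.4 and 18.0 CPM in shSCR, 24.2, 24.4 and 21.2 with shG9a1, and 21.9, 21.9 and 19.3 with shG9a4. Of the 3 shG9a1 libraries 2 were above every control and 1 lay inside the control range. Its log2 fold change with shG9a1 was 0.24 (SE 0.11, adjusted p = 0.658). BAX, the pore-forming protein of the outer mitochondrial membrane, had 47.2, 48.8 and 46.8 CPM in shSCR, 50.4, 53.9 and 46.3 with shG9a1, and 55.3, 39.3 and 48.2 with shG9a4. The controls were close together and the shG9a4 libraries enclosed them, so that BAX had a log2 fold change of 0.077 with shG9a1 (SE 0.11, adjusted p = 0.923) and one near 0 with shG9a4, whose sign differed between scalings. BBC3, near the lower end of the measured range, had 2.72, 1.75 and 2.07 CPM in shSCR, 1.89, 2.66 and 2.39 with shG9a1, and 3.23, 1.53 and 2.42 with shG9a4. The 3 groups overlapped entirely, and its log2 fold changes of 0.089 and 0.14 each had an SE of 0.27. APAF1, the scaffold of the apoptosome, ranged from 31.3 to 38.9 CPM, the exonuclease gene AEN from 76.8 to 90.0 CPM, TRIAP1, which encodes a small inhibitor of apoptosome activation, from 43.6 to 58.9 CPM, and PIDD1 from 4.57 to 11.1 CPM. The largest log2 fold changes among these 4 were those of TRIAP1, 0.15 with shG9a1 and 0.16 with shG9a4, neither of which passed the test.

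FAS, the receptor for Fas ligand and a starting point of the extrinsic apoptosis pathway, was the death receptor gene with the largest separation of the groups. It stood at 59.6, 64.2 and 63.2 CPM in shSCR, 78.1, 68.8 and 67.6 with shG9a1, and 71.4, 78.5 and 70.2 with shG9a4. Every knockdown library was above every control, and FAS was the one member with this pattern for both hairpins. The log2 fold change was 0.20 with shG9a1 (SE 0.075, adjusted p = 0.620) and 0.23 with shG9a4 (SE 0.075, adjusted p = 1.00). Over both hairpins it was 0.22 (SE 0.066), with an adjusted p of 0.939, or 0.258 with the block, and between 0.0963 and 1.00 over all settings tried. None of the death receptor genes, FAS included, passed the test with either hairpin. TNFRSF10B, the main TRAIL receptor gene of epithelial cells, lay between 295 and 328 CPM in all 9 libraries, with log2 fold changes of 0.015 and 0.0065 (SE 0.060 for each). TNFRSF10A, its paralog, lay between 74.5 and 90.6 CPM (log2 fold changes 0.027 and -0.019) and TNFRSF10C between 4.06 and 6.72 CPM. The log2 fold change of TNFRSF10C with shG9a1, 0.23 (SE 0.18), was above the 0.20 of FAS, but its libraries overlapped the controls, and with shG9a4 it was 0.055. EDA2R, a receptor for an ectodysplasin isoform, had log2 fold changes of 0.10 and 0.049.

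TP53I3, which encodes the quinone oxidoreductase PIG3, was the member with the largest difference from the control. It stood at 49.0, 70.3 and 60.8 CPM in shSCR (60.0 ± 10.6, SD), at 90.4, 92.4 and 82.3 with shG9a1 (88.4 ± 5.36), and at 67.9, 70.8 and 61.9 with shG9a4 (66.9 ± 4.55). All 3 shG9a1 libraries were above all 6 others, while the shG9a4 libraries overlapped the controls. With shG9a1 TP53I3 was 1.47-fold higher than the control (log2 fold change 0.56, SE 0.11), with an adjusted p of 0.313 in the fit without a block. With the replicate number as a block it passed, with a log2 fold change of 0.57 and an adjusted p of 0.0301, and it also passed with DESeq2 (adjusted p = 0.00685), with edgeR's likelihood ratio test (0.0100) and without a filter on low counts (2.57e-06). Over all settings the log2 fold change of TP53I3 lay between 0.42 and 0.69 and the adjusted p between 2.57e-06 and 0.889. The call with the block was lost when shSCR replicate 1 (adjusted p = 0.0717), shSCR replicate 3 (0.108), shG9a1 replicate 1 (0.120), shG9a1 replicate 3 (0.171) or shG9a4 replicate 3 (0.0675) was left out. With shG9a4 the log2 fold change was 0.16 (SE 0.11, adjusted p = 1.00). The difference between the hairpins was itself tested: shG9a4 was lower than shG9a1 by a log2 value of -0.40 (SE 0.11, adjusted p = 1.00; 0.262 with the block).

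The other metabolic members stayed below that. FDXR, the mitochondrial ferredoxin reductase, had 17.6, 16.5 and 15.9 CPM in shSCR, 19.0, 22.5 and 17.2 with shG9a1, and 22.2, 14.0 and 18.7 with shG9a4. Its log2 fold changes of 0.23 and 0.13 did not pass the test, and the shG9a4 group held both its lowest and nearly its highest library. SPATA18, a mediator of mitochondrial quality control, ranged from 29.6 to 46.2 CPM (log2 fold changes 0.24 and 0.12), and TIGAR, which lowers the glycolytic regulator fructose-2,6-bisphosphate, from 49.0 to 60.6 CPM. SESN2, a stress-induced inhibitor of mTORC1, lay between 16.7 and 21.6 CPM, with log2 fold changes of -0.068 and -0.066.

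**Figure D3:**
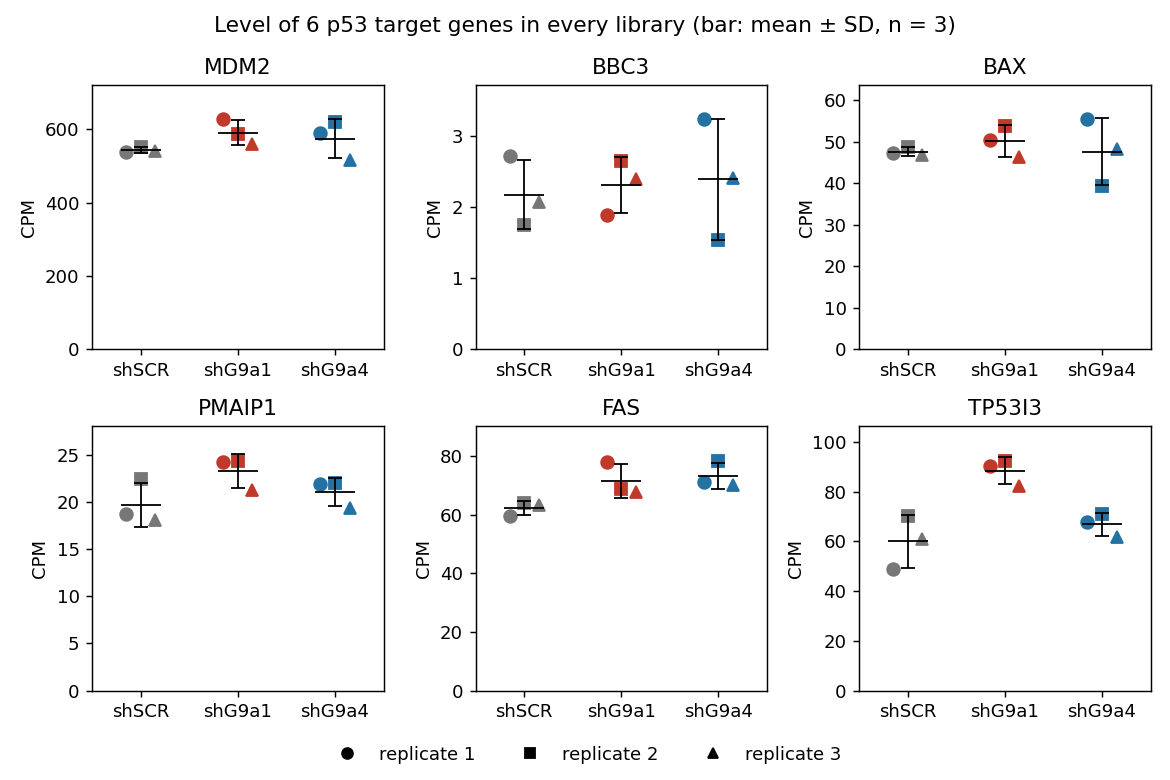
CPM per library for the 6 members named by rule (MDM2, BBC3, BAX, PMAIP1, FAS and TP53I3), with shSCR, shG9a1 and shG9a4 side by side; symbols are libraries, shaped by replicate number, and bars the mean ± SD. The 3 shG9a1 libraries of TP53I3 lie between 82.3 and 92.4 CPM, above the other 6, and for FAS the 6 knockdown libraries all lie above the 3 controls.

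Of the DNA repair members, RRM2B, which supplies deoxynucleotides for repair, had 260, 291 and 231 CPM in shSCR, 345, 327 and 255 with shG9a1, and 298, 332 and 222 with shG9a4. Replicate 3 was the lowest library in each group, and the hairpins' log2 fold changes of 0.24 (SE 0.15, adjusted p = 0.775) and 0.12 were smaller than the log2 difference of -0.34 between replicates 3 and 1. DDB2, the damage-recognition protein whose promoter carries the element with 0 mismatches shown above, had 40.4, 32.0 and 33.4 CPM in shSCR, 37.0, 30.6 and 29.7 with shG9a1, and 39.1, 30.5 and 29.9 with shG9a4. It was highest in replicate 1 of every group, and its log2 fold changes were -0.12 and -0.090, with SEs of 0.13. XPC, the partner of DDB2 in recognising damage, ranged from 50.6 to 60.8 CPM, and POLH, a polymerase that copies past damaged bases, had log2 fold changes of 0.064 and 0.041. Neither XPC nor POLH passed the test with either hairpin.

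All 5 growth arrest and stress members had a mean above the control with shG9a1, and 4 of 5 with shG9a4, with medians of 0.16 and 0.059. GDF15, a secreted stress cytokine, had 12.2, 11.3 and 9.03 CPM in shSCR, 15.6, 16.7 and 10.6 with shG9a1, and 15.1, 10.2 and 11.6 with shG9a4. The groups overlapped, and the log2 fold change with shG9a1 was 0.40 (SE 0.19, adjusted p = 0.693). GDF15 passed with the block only when shG9a4 replicate 2 was left out (adjusted p = 0.0365). PLK3, a stress-responsive polo-like kinase, had 15.8, 20.1 and 20.4 CPM in shSCR and 20.5, 21.4 and 20.4 with shG9a1, so that the highest control and the lowest shG9a1 library were equal to the first decimal, and the log2 fold change of 0.15 had an SE of 0.13. Its relative PLK2 ranged from 71.8 to 122 CPM, PHLDA3, an inhibitor of AKT that competes for membrane lipids, from 29.4 to 48.4 CPM, and ZMAT3, an RNA-binding regulator of splicing, from 103 to 132 CPM.

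The replicate number, rather than the hairpin, held the larger share of the spread of most members, as it did for most of all genes tested. For 22 of the 30 genes the number accounted for more of the sum of squares of log2 CPM than the hairpin did, against 63.2% of all genes tested, and the median shares were 33.0% for the number and 18.2% for the hairpin (33.9% and 18.9% over all genes). The replicate number was also tested in edgeR, jointly for any difference among the 3 numbers, a test chosen after seeing the data. It called 3 of the 30 by adjusted p, against 7.47% of all genes. The adjusted p of this joint test was 0.0103 for MDM4, 0.00904 for RRM2B and 0.0121 for DDB2. Single differences between numbers were not tested. MDM4 was higher in replicate 3 than in replicate 1 (log2 difference 0.34), and RRM2B was lower (log2 difference -0.34). DDB2 was lower in both replicates 2 and 3 than in replicate 1 (log2 differences -0.32 and -0.33). The count of members was 1 without shSCR replicate 3 (2.79% of all genes) or without shG9a1 replicate 3 (2.68%). It was 0 without shG9a4 replicate 3 (2.31% of all genes), 5 without shG9a4 replicate 2 (9.04%) and 8 without shG9a1 replicate 2 (11.2%). The share of all genes called thus rose and fell with the count of members. The hairpin held its largest shares of the sum of squares for TP53I3 (75.1%) and FAS (66.7%), and the number its largest for DDB2 (87.5%).

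Replicate 3 had the most members below their group mean with shG9a1 (25 of 30) and with shG9a4 (21 of 30). With shSCR replicate 3 had 18 of 30 and replicate 1 had 19. In each group replicate 3 also had the fewest reads in genes (53065611, 54477100 and 53583483), and the part of depth was not tested. Against the shSCR mean, the median log2 value of the 30 genes was 0.15, 0.16 and 0.032 in the 3 shG9a1 libraries and 0.15, 0.051 and -0.0075 in the 3 shG9a4 libraries. The controls themselves were at -0.015, 0.069 and -0.011, so that shG9a1 replicate 3 and shG9a4 replicates 2 and 3 lay within the control range. Some members moved together over the 9 libraries after the group means were removed. The deviations of PPM1D, EDA2R, RRM2B and CCNG1 followed those of MDM2 with Pearson correlations of 0.95, 0.934, 0.913 and 0.891, while those of PIDD1 and MDM4 ran the other way at -0.706 and -0.763. These values describe 9 libraries that share replicate numbers and a scaling factor each. Lowest values also gathered in a few libraries. Of the 9 values, shG9a4 replicate 2 held the lowest for 7 members (AEN, BAX, BBC3, FDXR, PHLDA3, PIDD1 and SESN2). The lowest was in shG9a4 replicate 3 for 6 members and in shSCR replicate 1 for 9, TP53I3 and FAS among them. How often each library was lowest, or below its group mean, over all genes was not examined. Neither pattern is therefore shown to be particular to the members.

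**Figure D4:**
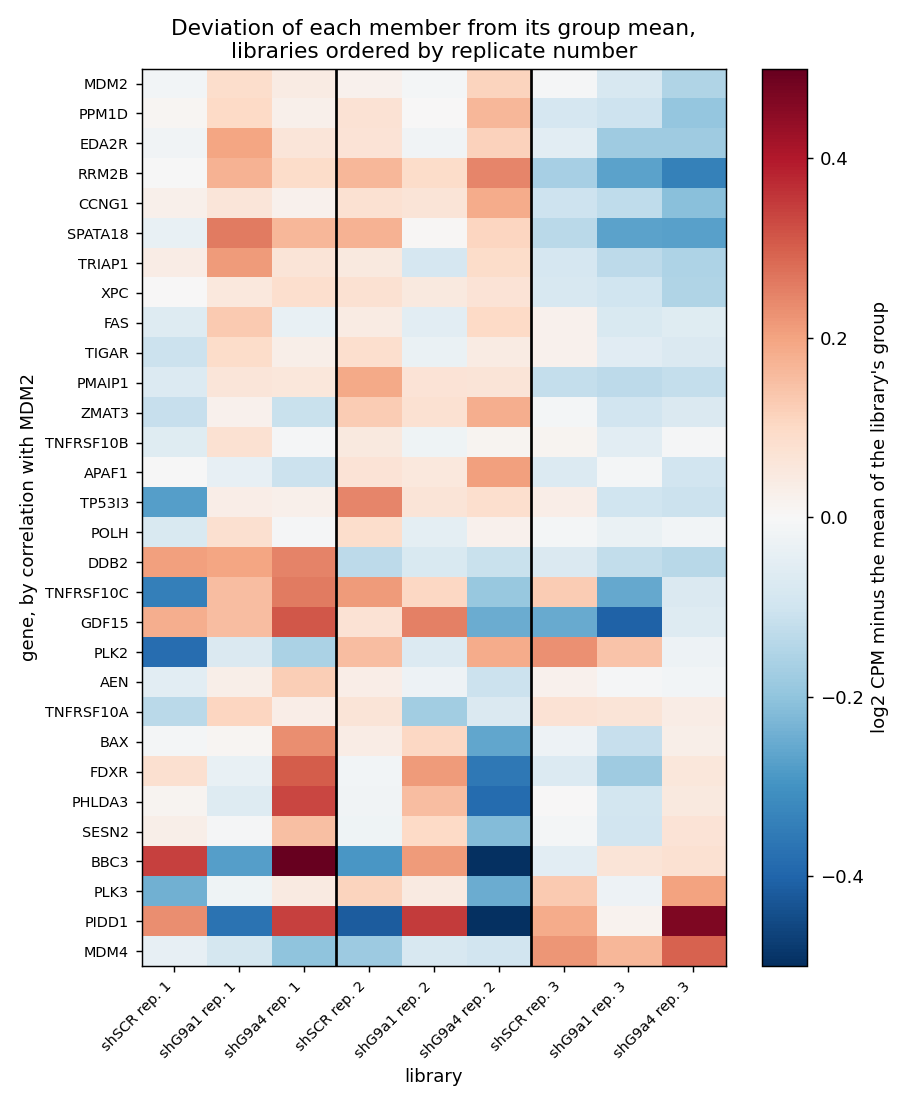
Deviation of each member from its group mean (log2) in the 9 libraries, with members in rows and libraries in columns ordered by replicate number; rows are ordered by correlation with MDM2, and the color scale ends at 0.5 on either side. Replicate 3 of shG9a1 and shG9a4 shows mostly values below 0 (25 and 21 of 30), with MDM4 above 0 in replicate 3 of every group.

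The wider p53 pathway outside the 30 genes was read from lists of other targets, cofactors, apoptosis genes and genes repressed through p21, and in these lists 0 of 130 tested genes passed the test with either hairpin, with or without the block. DESeq2, the likelihood ratio test and limma voom also called 0, and without a filter on low counts CDKN1A, THBS1 and TRIM22 were among those called with shG9a1. At an unadjusted p under 0.05, 6 of the 130 were higher and 2 lower with shG9a1 (4.34% and 3.15% of all genes), and 3 higher and 0 lower with shG9a4 (1.4% and 0.971% of all genes). Of 50 other p53 targets 41 had a mean above the control with shG9a1 and 38 with shG9a4 (50.2% and 50.8% of all genes), with medians of 0.12 and 0.068. At an unadjusted p under 0.05, 4 of the 50 were higher with shG9a1 and 1 with shG9a4, against 4.34% and 1.4% of all genes. Among them CDKN1A, which encodes the cyclin-dependent kinase inhibitor p21, stood at 219, 298 and 269 CPM in shSCR, 399.7, 330 and 315 with shG9a1, and 319, 257 and 269 with shG9a4. Every shG9a1 library of CDKN1A was above every control and the shG9a4 libraries overlapped them. The log2 fold change was 0.41 with shG9a1 (SE 0.13, adjusted p = 0.592, and 0.168 with the block) and 0.10 with shG9a4, and over all settings the adjusted p with shG9a1 lay between 0.00087 and 1.00. PERP, a desmosomal p53 target, had the lowest unadjusted p among those of the 50 targets that were higher with shG9a4 (log2 fold change 0.23).

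Of 31 tested kinases, ligases and cofactors that act on p53, 11 were above the control with shG9a1 and 13 with shG9a4, and KMT5A, which encodes a methyltransferase that modifies p53, had the lowest unadjusted p (log2 fold change 0.24 with shG9a4). CDKN2A, the remaining gene of that list, named after its values were seen, had 0 reads in each of the 9 libraries, which at 3 reads per library allows up to 0.0565 CPM in the shallowest. Of 23 core apoptosis genes 14 were above the control with each hairpin, and CFLAR, the inhibitor of caspase 8 at death receptors, had the lowest unadjusted p among the higher ones (log2 fold change 0.21 with shG9a1). Of 16 genes that p53 lowers through p21 and the DREAM complex, 13 were below the control with shG9a1 and 9 with shG9a4, with medians of -0.075 and -0.019. CDC25A, a phosphatase that drives entry into S phase, lay below the control with both hairpins (log2 fold changes -0.22 and -0.15). PCNA, the replication clamp, lay above the control with both (0.16 and 0.22). Of 10 DREAM subunits 8 were below the control with shG9a1 and 6 with shG9a4, with medians of -0.048 and -0.0055, and with shG9a1 LIN9 stood at a log2 fold change of -0.22.

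The authors' deposited tables of each hairpin against the control listed 24 of the 30 genes. For shG9a1 the posterior fold change in the authors' deposited table was above 1 for 20 and below 1 for 4, between 0.911 and 1.48. TP53I3 was the only member there with a posterior probability of differential expression above 0.95 (fold change 1.48, probability 0.996), where 3% of all listed genes were above it, and the next, FAS, had 0.167. For shG9a4 the authors' deposited table gave 18 above 1 and 6 below, with 0 members above 0.95 (0.614% of listed genes) and the highest probability, 0.745, for FAS at a fold change of 1.17.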

How the data were processed

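RNA from 9 cultures was sequenced as stranded, ribosome-depleted libraries, per the labels' protocols. The deposited files hold raw read counts per gene with unstranded, forward and reverse columns; STAR 2.5.2a, edgeR 3.14.0, R 3.3.1 and DESeq, with GRCh37 and hg19, are named in the submitters' processing notes without roles. The reverse-strand counts were used, since they held 94.7% to 95.1% of the stranded reads. Reads outside features (12.2% to 15.4%), ambiguous (2.49% to 2.68%), multimapped (4.57% to 5.49%) and unmapped (2.75% to 4.34%) were left out. Per the file headers, the authors' deposited comparison tables give a posterior fold ratio and a probability score (PPDE); no label or header names the tool behind them.

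Of 60308 gene IDs, 55277 were named from a symbol table and 421 from GENCODE. Counts were filtered with filterByExpr (18435 genes tested), scaled by TMM and fitted in edgeR 4.0.16 (R 4.3.3) by the quasi-likelihood test, two-sided, with 9 libraries in 1 fit, 6 residual degrees of freedom (4 with the replicate block) and Benjamini-Hochberg adjustment over all genes tested at 0.05. RPKM divides CPM by the union exon length of GENCODE v29. Alternatives were DESeq2 1.42.0, limma 3.58.1 voom, the likelihood ratio test, other scalings and filters, unstranded counts, the replicate block and leaving out each library. The fit was also run on simulated counts. These held no effect of replicate number, unlike the libraries here, so their outcome is not used to judge what could be detected.

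The replicate numbers come from the labels. Same-numbered libraries correlated in their deviations from the group means at 0.178 to 0.461 (9 pairs, mean 0.304), and differently numbered ones at -0.327 to 0.169 (18 pairs, mean -0.152). No 2 replicates agreed within sampling noise (chi-square per degree of freedom 28.4 to 89.3, the highest with shG9a4 replicate 2).

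Members and lists were chosen with earlier results of these data known. Values of every library were given for members with an unadjusted p under 0.05 against shSCR in either comparison or an adjusted p under 0.05 with the block, and for MDM2, BBC3, BAX and PMAIP1; MDM4, FDXR, RRM2B, DDB2, GDF15 and PLK3 were added after their values were seen. From other lists CDKN1A and the gene with the lowest p per direction were eligible.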

Additional observations from a re-analysis of the deposited data

How the results depend on the processing

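The median log2 fold change of the 30 genes kept its direction under every alternative run. It moved by less than 0.067, the pooled SD of the library medians within groups. That SD is larger than the median with shG9a4 (0.062) and the size of the one between the hairpins (-0.051). For these 2 comparisons a fall to near 0 would therefore also stay within it. The median lay between 0.062 and 0.15 for shG9a1, 0.0043 and 0.089 for shG9a4, -0.10 and -0.026 between the hairpins, and 0.043 and 0.12 for their mean. The count of members called with shG9a1 was 0, and 1 without a filter, with DESeq2, with the likelihood ratio test and with the replicate block; leaving out each library gave 0 without the block and 0 to 2 with it. Without a filter the count was also 1 between the hairpins and 1 for their mean (TP53I3 in each). The cause was not tested. With the replicate block 0.776% of all genes were called with shG9a1. For the fits without a filter, with DESeq2, with the likelihood ratio test or with a library left out, that share was not counted. The member counts in those fits are therefore not shown to differ from those of other genes. The replicate block changed no other call of the 6 members named by rule. The replicate number test called 0 to 8 members when single libraries were left out, against 2.31% to 11.2% of all genes.

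Values near 0 changed sign. BAX with shG9a4, 0.00076 as reported, was -0.0044 with DESeq2 size factors, -0.0084 with total counts, -0.0028 without a filter, -0.011 with a filter at 1 CPM, -0.0045 with DESeq2, -0.010 with voom, -0.0076 with unstranded counts and -0.0053 with the replicate block. BBC3 between the hairpins was -0.00078 with the replicate block. When each library was left out in turn, with and without the block, BAX ranged from -0.038 to 0.14 with shG9a1, -0.12 to 0.15 with shG9a4, -0.20 to 0.073 between the hairpins and -0.029 to 0.11 for their mean. BBC3 ranged over the same comparisons from -0.22 to 0.46, -0.14 to 0.38, -0.35 to 0.34 and -0.054 to 0.31. Between the hairpins FAS ranged from -0.024 to 0.12 and MDM2 from -0.10 to 0.030. Over all settings the sign differed in at least 1 setting for 10 of the 30 members with shG9a1 and for 22 of 30 with shG9a4.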
